A study of Mus musculus with 12 samples.

Results

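Matrix metalloproteinases are zinc enzymes that cut collagens, fibronectin, laminins and other proteins outside the cell, and tissue inhibitors of metalloproteinases (TIMPs) bind and block them. The 10 genes described here are 6 metalloproteinases (Mmp2, Mmp9, Mmp10, Mmp14, Mmp15 and Mmp19) and the 4 TIMP genes (Timp1 to Timp4), chosen by symbol from the 56941 genes of the deposited count table. All 10 symbols were found, each on 1 row. The cells were C2C12, mouse myoblasts that fuse into myotubes once growth medium is replaced by differentiation medium. The ChR2::tdTomato line, which carries a light-gated cation channel fused to a red fluorescent protein and is called ChR2 below, was set against the Wild-Type line, with 6 wells and 6 libraries of each. All 12 wells held a fibrin gel, 1 mm thick and cast at 8 mg of fibrinogen per mL, under the cells. They had 2 days of growth medium, followed by 6 days of differentiation medium that contained horse serum and IGF-1. Both media held aminocaproic acid, which slows the breakdown of fibrin by plasmin, at 1 mg per mL. The promoter of the transgene, and whether either line is 1 clone, are not given in the sources used here. Whether wells of the same line were independent cultures is not stated, so the p-values below reflect well-to-well spread.

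Metalloproteinases are made as inactive proenzymes in which a cysteine of the propeptide covers the catalytic zinc. The gelatinase Mmp2 is activated at the cell surface by the membrane-type enzyme Mmp14, with Timp2 as the bridge: Timp2 bound to Mmp14 captures the Mmp2 proenzyme, and a neighbouring Mmp14 free of inhibitor cuts it. In skeletal muscle these enzymes are known for their part in myoblast migration, fusion and the remodelling of the basement membrane.

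Depth, as total estimated count, was 7388726 to 12229436 for ChR2 libraries and 10268033 to 13628540 for wild-type wells 1, 3, 4 and 6. Wild-type wells 2 and 5 were shallower, at 1061051 and 2809669. The genes Rn7s1 and Rn7s2, which encode the 7SL RNA that carries no poly(A) tail, made up 24.8% of counts in well 2, 8.37% in well 5 and no more than 0.0341% elsewhere. Tests of the members and partner genes are therefore given with and without wild-type wells 2 and 5, and levels in TPM are given apart for those wells. CPM is the count scaled to library size, here after TMM normalisation. TPM also takes transcript length into account and is used to compare one gene with another. Muscle genes defined the cultures in both lines, where Acta1 averaged 4213 ± 470 CPM (ChR2) and 3693 ± 920 CPM (wild-type; mean ± SD, n = 6 each). Of 8 muscle markers 3 were lower in ChR2 wells, Myog, Des and Ttn, and 2 were without wells 2 and 5, Myog and Ttn. In both comparisons 0 were higher. Over 12 libraries the uncalled markers Myh3, Ckm, Tnnt3, Acta1 and Myod1 had log2 fold changes of 0.58, 0.50, 0.41, 0.19 and -0.18. The median over the list was 0.003, and -0.07 without wells 2 and 5. The log2 fold change of Ttn was -2.00 over 12 libraries and -0.79 without wells 2 and 5.

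Promoter sequence was available for 7 of the 10 genes. Shown here are the 250 bases before the RefSeq transcription start (build GRCm38.p6, each on the plus strand) of Mmp14, Mmp15 and Mmp10. Mmp14 and Mmp15 are the membrane-type members, whose messages were called in opposite directions, though the call of Mmp15 was lost in 15 of 24 alternative settings. Mmp10 is a gene close to the detection limit. Capitals mark matches, on either strand, to the GC box GGGCGG, the AP-1 site TGACTCA or TGAGTCA and the TATA box TATAAA.
Mmp14, chr14:54431348-54431597: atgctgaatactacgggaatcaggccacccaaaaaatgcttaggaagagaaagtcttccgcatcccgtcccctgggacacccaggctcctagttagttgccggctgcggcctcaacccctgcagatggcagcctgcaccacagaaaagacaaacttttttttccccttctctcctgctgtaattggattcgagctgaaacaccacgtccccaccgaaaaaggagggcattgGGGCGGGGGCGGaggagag
Mmp15, chr8:95352046-95352295: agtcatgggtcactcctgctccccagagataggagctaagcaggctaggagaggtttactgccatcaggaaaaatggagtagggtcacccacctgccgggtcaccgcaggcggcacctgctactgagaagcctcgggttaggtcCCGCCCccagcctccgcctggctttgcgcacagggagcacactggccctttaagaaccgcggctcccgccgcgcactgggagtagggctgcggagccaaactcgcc
Mmp10, chr9:7502092-7502341: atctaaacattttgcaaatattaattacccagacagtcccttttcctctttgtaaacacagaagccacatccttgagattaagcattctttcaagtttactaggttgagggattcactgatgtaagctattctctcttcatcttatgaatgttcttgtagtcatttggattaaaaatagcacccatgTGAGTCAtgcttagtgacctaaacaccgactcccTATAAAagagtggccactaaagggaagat
Mmp14 held 2 adjacent GC boxes and Mmp15 held 1. Mmp10 held no GC box but 1 AP-1 match, 57 to 63 bases before the start, and 1 TATA box. Of 32851 windows of the same length, 32.7% held a GC box, 4.46% an AP-1 match and 12.4% a TATA box. The windows of Timp1, Timp2 and Timp3 each held 1 GC box, and that of Timp4 held none. Neither AP-1 nor TATA matches were found in those 4 windows. A match in a window is a description of its letters and was not tied to any level below.

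The design sets both lines side by side after identical culture. Of the 10 genes, 7 passed the filter on low counts and were tested. Messages of Mmp2, Mmp14, Timp1 and Timp3 were higher in ChR2 wells and that of Mmp15 was lower, while Timp2 and Mmp19 did not pass (edgeR's quasi-likelihood test; threshold 0.05 on p adjusted by Benjamini-Hochberg across all tested genes). Across all genes 28.1% of 13168 genes were called, 14.0% higher and 14.1% lower. With wild-type wells 2 and 5 left out, Mmp2, Mmp14, Timp1 and Timp3 were again called higher and Mmp15 lower, beside 35.2% of 13484 genes called, 18.9% higher and 16.3% lower. The median log2 fold change (ChR2 over wild-type) of all genes tested was -0.02, and -0.0014 without those wells. In bulk RNA, fewer cells that make a message and less of it per cell cannot be told apart.

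**Figure D1:**
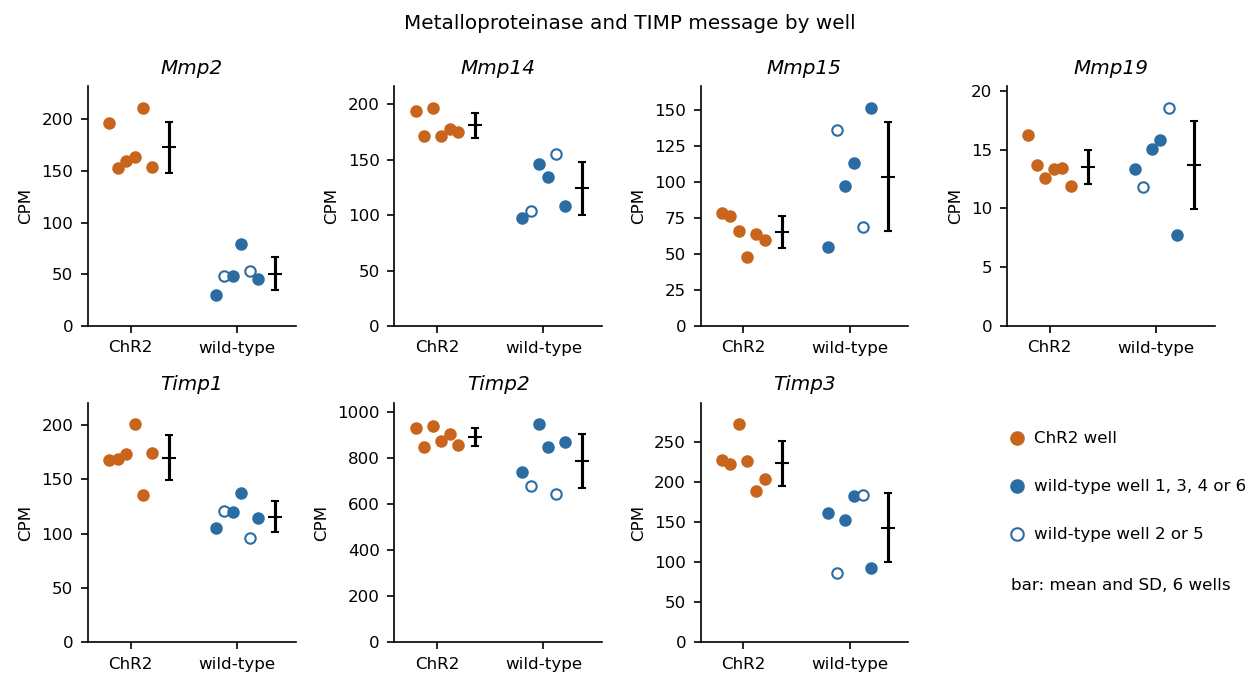
Level of the 7 tested members in each well, in CPM on TMM-scaled library sizes; points are wells, open points are wild-type wells 2 and 5, and bars give the mean and SD over 6 wells. The ChR2 wells of Mmp2 lie between 153 and 211 CPM, above all wild-type wells at 29.7 to 79.1 CPM, while the points of Timp2 and Mmp19 overlap.

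Among the secreted enzymes, Mmp2, which digests denatured collagen and type IV collagen, showed the largest fitted change of the 7 tested members. Its level ran from 153 to 211 CPM in ChR2 wells with a median of 161 CPM, and from 29.7 to 79.1 CPM in wild-type wells with a median of 48.3 CPM. The lines did not overlap, and the highest wild-type well was well 4. The fold change was 3.41 (log2 fold change 1.77, SE 0.19, adjusted p = 4.02e-05 by edgeR), and 3.45 without wild-type wells 2 and 5 (log2 fold change 1.79, SE 0.23, adjusted p = 0.000222). Wells 2 and 5 lay at 48.5 and 52.8 CPM, among the other wild-type wells.

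Mmp19, an enzyme that cuts basement membrane proteins, ran from 11.9 to 16.2 CPM in ChR2 wells with a median of 13.4 CPM. In wild-type wells it ran from 7.70 to 18.6 CPM with a median of 14.2 CPM. The wild-type wells lay on both sides of the ChR2 wells, with well 6 lowest and well 5 highest. The log2 fold change was -0.01 (SE 0.18, adjusted p = 0.968 by edgeR), or 0.09 without wells 2 and 5 (SE 0.17, adjusted p = 0.735).

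The membrane-type members, Mmp14 and Mmp15, were called in opposite directions, but the call of Mmp15 was not stable, as given below. Mmp14, the surface activator of Mmp2, ran from 171 to 197 CPM in ChR2 wells with a median of 176 CPM, and from 97.7 to 155 CPM in wild-type wells with a median of 121 CPM. The lines did not overlap, and the nearest wild-type well was well 5. Its log2 fold change was 0.54 (SE 0.13, adjusted p = 0.00635 by edgeR), and 0.59 without wells 2 and 5 (SE 0.11, adjusted p = 0.00115).

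Mmp15, the closely related membrane-type enzyme, ran from 47.9 to 78.1 CPM in ChR2 wells with a median of 64.8 CPM. In wild-type wells it ran from 54.8 to 151 CPM with a median of 105 CPM. Wild-type wells 1 and 5, at 54.8 and 68.5 CPM, lay within the ChR2 range, and wells 2, 3, 4 and 6 lay above it. The log2 fold change was -0.65 (SE 0.22, adjusted p = 0.0372 by edgeR), or -0.66 without wells 2 and 5 (SE 0.23, adjusted p = 0.0480). Leaving out a single library ended this call for 8 of the 12 libraries, namely ChR2 wells 3 to 6 and wild-type wells 2, 3, 4 and 6, with adjusted p of at most 0.0847. In all, 15 of 24 alternative settings ended the call. It missed without a filter on low counts (adjusted p = 0.0675), with upper-quartile scaling (0.0635) and with a replicate block (0.0920), all by edgeR. In limma fits of TPM over 12 libraries its log2 fold change was -0.15 (adjusted p of at least 0.848).

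Among the inhibitors, Timp1, which blocks most secreted metalloproteinases but membrane-type ones poorly, ran from 135 to 200 CPM in ChR2 wells with a median of 171 CPM, and from 96.3 to 137 CPM in wild-type wells with a median of 117 CPM. The lines overlapped at 1 well of each, ChR2 well 5 at 135.2 CPM and wild-type well 4 at 136.8 CPM. The log2 fold change was 0.55 (SE 0.12, adjusted p = 0.00348 by edgeR), and 0.53 without wells 2 and 5 (SE 0.11, adjusted p = 0.00252). Timp3, which is held in the matrix and also blocks ADAM proteases, ran from 188 to 272 CPM in ChR2 wells with a median of 225 CPM. In wild-type wells it ran from 86.5 to 184 CPM with a median of 157 CPM. The lines did not overlap, though wild-type wells 4 and 5, at 183.2 and 183.8 CPM, came close to ChR2 well 5 at 188.4 CPM. The log2 fold change was 0.63 (SE 0.18, adjusted p = 0.0196 by edgeR), and 0.62 without wells 2 and 5 (SE 0.16, adjusted p = 0.00925).

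Timp2, the bridge between Mmp14 and the Mmp2 proenzyme, was the most abundant member per length in both lines. It ran from 850 to 940 CPM in ChR2 wells with a median of 890 CPM. In wild-type wells it ran from 645 to 948 CPM with a median of 794 CPM. The lowest wild-type wells were 5 and 2, at 645 and 680 CPM, and well 3 was higher than any ChR2 well. The log2 fold change was 0.18 (SE 0.13, adjusted p = 0.320 by edgeR), and 0.08 without wells 2 and 5 (SE 0.10, adjusted p = 0.533).

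Of the tested members, Mmp2, Mmp14 and Timp3 were higher in each ChR2 well than in any wild-type well, where 8.57% of all tested genes were, and 0 were lower in each ChR2 well, where 6.52% were. When wells 2 and 5 are set aside, Mmp2, Mmp14 and Timp3 again, but no member in the lower direction, were separated in this way, beside 13.7% and 11.2%.

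**Figure D2:**
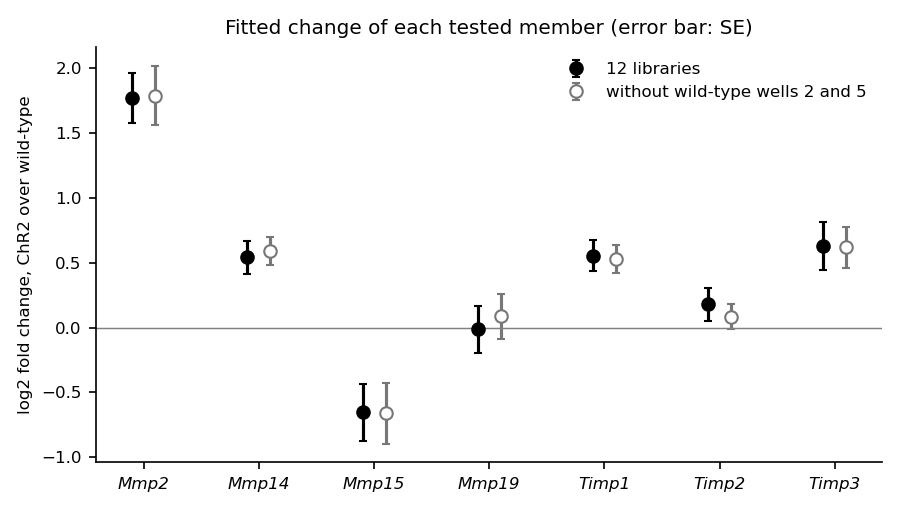
Log2 fold change of ChR2 over wild-type (edgeR, y axis) for the 7 tested members, with SE bars, from 12 libraries (filled) and from 10 libraries without wild-type wells 2 and 5 (open). Mmp2 stands at 1.77 and 1.79, Mmp14, Timp1 and Timp3 between 0.53 and 0.63, and Mmp15 at -0.65 and -0.66.

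The remaining members, Mmp9, Mmp10 and Timp4, did not pass the filter. Up to 3 counts in a library are treated here as below detection. Mmp9, the gelatinase best known from leukocytes and from inflamed tissue, had 0 to 5 estimated counts in each ChR2 well. In wild-type wells it had 68 counts in well 4 and 29 in well 6, which made 97 of the 102 wild-type counts. Wild-type wells 1 and 3, sequenced to a like depth, had 0 and 1. Wild-type wells thus spread from 0 to 68 counts, and with the filter removed Mmp9 did not pass (adjusted p = 0.151 by edgeR).

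The summed level of the leukocyte markers did not follow Mmp9, but that sum rests mostly on 2 genes. The summed level of 9 such markers was 10.3 and 8.07 CPM in wild-type wells 4 and 6, within the 7.86 to 16.4 CPM of the other wild-type wells. It was 6.29 to 10.4 CPM in ChR2 wells. Most of the sum came from Cd68 and Cd14, which averaged 4.80 and 4.40 CPM over wild-type wells and 4.09 and 3.01 CPM over ChR2 wells. Each other marker averaged at most 0.642 CPM in either line, so the sum cannot show whether the scarcer markers followed Mmp9. One marker of the list was high in the same wells as Mmp9: S100a8, a calcium-binding protein of neutrophils, had 21 and 7 counts in wild-type wells 4 and 6 and at most 3 in any other library. Its neutrophil partner S100a9, the pan-leukocyte surface phosphatase Ptprc and the macrophage marker Adgre1 had at most 1 count in any library. Of the 9, 2 were tested and 0 were called by edgeR, with 0 called also without wells 2 and 5. The part of leukocytes in the counts of Mmp9 was not tested.

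Mmp10, a stromelysin that can activate other metalloproteinases, had 3 counts in all over the ChR2 wells and 25 over the wild-type wells, of which 15 were in well 1. Without well 1 the wild-type total was 10. With no filter on low counts Mmp10 was called lower in ChR2 wells (adjusted p = 0.0412 by edgeR), on counts of which all but those of wild-type wells 1 and 4 were at or under the floor. The other fits that tested Mmp10 did not call it. Their adjusted p was 0.0684 by DESeq2's Wald test and 0.443 by limma on log2(TPM + 1) with no filter. Timp4, the inhibitor best known from heart, had 21 counts over the ChR2 wells and 13 over the wild-type wells, and at most 7 in any library. At this depth no difference in Timp4 was detectable.

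**Figure D3:**
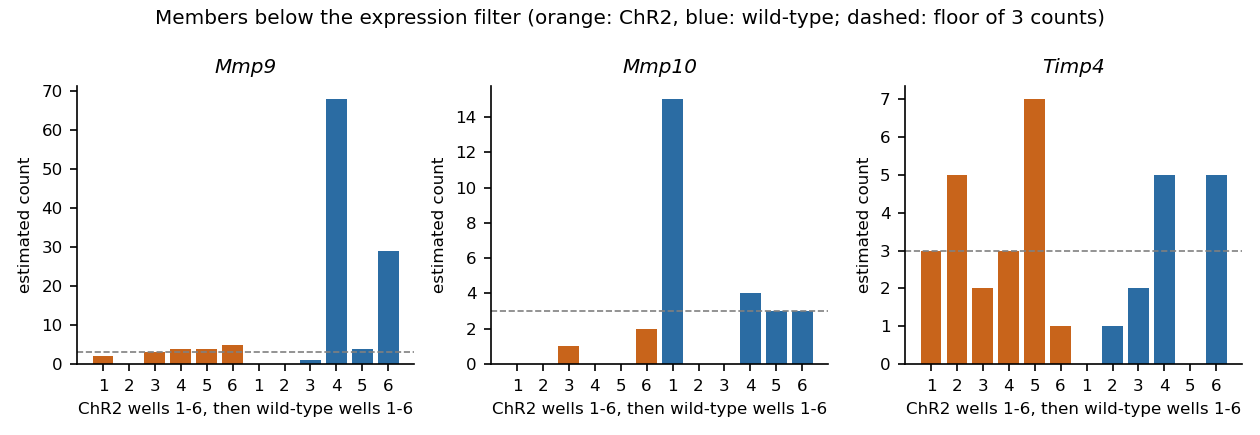
Estimated counts of Mmp9, Mmp10 and Timp4 in each library, ChR2 wells 1 to 6 in orange and then wild-type wells 1 to 6 in blue; the dashed line is the floor of 3 counts. Mmp9 stands out in wild-type wells 4 and 6 with 68 and 29 counts, and Mmp10 in wild-type well 1 with 15.

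Per length, the 4 TIMPs together outweighed the 6 metalloproteinases of this set in both lines. In ChR2 wells the mean TPM was 458 ± 36.6 for Timp2, 324 ± 41.3 for Timp1, 101 ± 14.6 for Mmp14, 82.3 ± 14.6 for Mmp2, 62.7 ± 12.5 for Timp3, 17.2 ± 4.25 for Mmp15 and 6.11 ± 1.08 for Mmp19 (SD, n = 6). The ranges of Mmp14 and Mmp2 overlapped, as did those of Mmp2 and Timp3, though within each ChR2 well Mmp2 was above Timp3. In wild-type wells 1, 3, 4 and 6 the order was Timp2 at 539 ± 46.7 TPM, Timp1 at 242 ± 30.7, Mmp14 at 69.6 ± 15.4, Timp3 at 43.5 ± 12.4, Mmp15 at 28.4 ± 9.77, Mmp2 at 24.7 ± 10.1 and Mmp19 at 6.06 ± 1.78 TPM (SD, n = 4). There the ranges of Timp3, Mmp15 and Mmp2 overlapped with each other. Within each of these wells Timp3 was above Mmp2, most narrowly in well 6 at 25.3 against 20.3 TPM. The place of Mmp15 was not fixed, since it was above Timp3 in well 6 (39.2 TPM) and below Mmp2 in well 4 (31.1 against 38.3 TPM). These orders were not tested. Wells 2 and 5 are left out of these levels because 7SL RNA made up 24.8% and 8.37% of their counts. Timp2 stood at 52.5 and 154 TPM in them. The share of 7SL RNA in their TPM was not computed.

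The make-up of the family within each library can be read from shares of TPM. Mmp2 made up 35.8% to 46.0% of the summed TPM of the 6 metalloproteinases in ChR2 wells and 15.2% to 25.0% in wild-type wells, wells 2 and 5 included. Mmp15 made up 6.58% to 10.3% in ChR2 wells and 11.8% to 32.7% in wild-type wells. Neither share overlapped between the lines. A share also moves with the other members of the sum, and Mmp2 and Mmp14 were higher in ChR2 wells. The level of Mmp15 itself overlapped, at 47.9 to 78.1 CPM in ChR2 wells and 54.8 to 151 CPM in wild-type wells. Mmp14 made up 43.5% to 51.7% in ChR2 wells and 46.7% to 66.5% in wild-type wells, and those ranges overlapped. All are descriptions, with no test.

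The members of the activation complex stood in these proportions. There were 0.711 to 1.06 Mmp2 transcripts for each Mmp14 transcript in ChR2 wells and 0.235 to 0.519 in wild-type wells, as ratios of TPM. There were 4.46 to 6.40 Timp2 transcripts for each Mmp2 transcript in ChR2 wells and 11.1 to 34.7 in wild-type wells. Neither ratio overlapped between the lines. The ratio of Mmp14 to Timp2 was 0.195 to 0.243 in ChR2 wells and 0.109 to 0.147 in wild-type wells 1, 3, 4 and 6, but 0.227 and 0.385 in wells 2 and 5. The ratio of Timp1 to Timp2 was 0.579 to 0.813 in ChR2 wells and 0.413 to 0.530 in wild-type wells 1, 3, 4 and 6, with 0.924 and 0.716 in wells 2 and 5. For each of these ratios, 1 of wells 2 and 5 lay among the ChR2 wells and the other above them, away from the rest of their line.

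**Figure D4:**
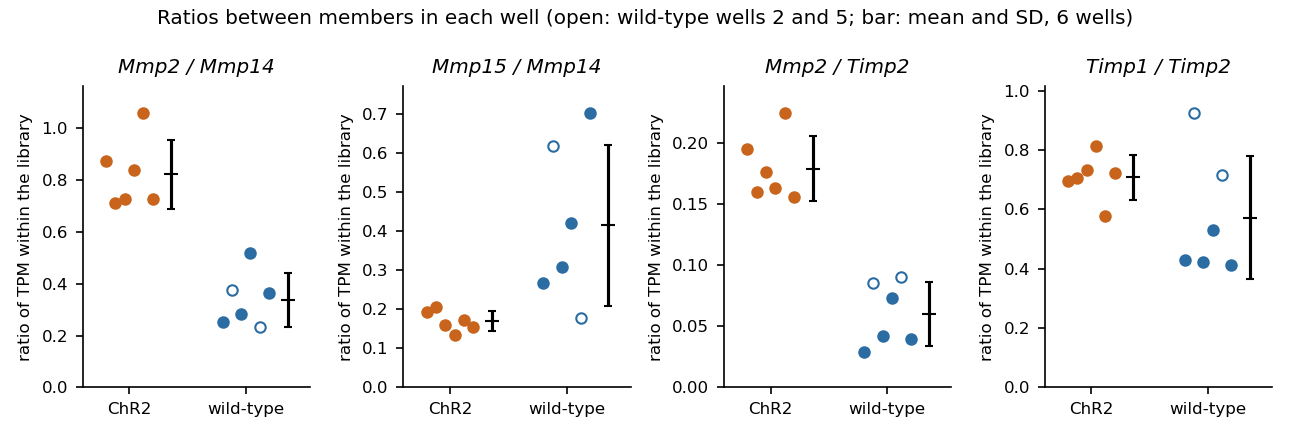
Ratios of TPM between pairs of members within each library; points are wells, open points are wild-type wells 2 and 5, bars give the mean and SD over 6 wells. The ratio of Mmp2 to Mmp14 lies between 0.711 and 1.06 in ChR2 wells and between 0.235 and 0.519 in wild-type wells, while Timp1 to Timp2 overlaps through wells 2 and 5.

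The summed TPM of the 6 metalloproteinases was 169 to 241 in ChR2 wells and 97.4 to 153 in wild-type wells 1, 3, 4 and 6. That of the 4 TIMPs was 741 to 952 and 749 to 913. In wild-type wells 2 and 5 the sums were 24.8 and 89.3 for the metalloproteinases and 106.3 and 295.8 for the TIMPs. The metalloproteinases therefore held 16.9% to 22.3% of the family's transcripts in ChR2 wells and 11.1% to 15.2% in those 4 wild-type wells. In wells 2 and 5 they held 18.9% and 23.2%.

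Of 17 other metalloproteinase genes, 4 were tested, 3 were higher in ChR2 wells and 0 lower, with the same counts without wells 2 and 5. The level of Mmp16, a further membrane-type enzyme, averaged 2.37 ± 0.52 CPM over ChR2 wells against 0.47 ± 0.54 CPM over wild-type wells (SD, n = 6 each, as for the levels that follow). Its log2 fold change was 2.60 (SE 0.52, adjusted p = 0.00223 by edgeR), and 2.59 without wells 2 and 5. Mmp16 ran from 1.76 to 2.91 CPM in ChR2 wells and from 0 to 1.31 CPM in wild-type wells. It thus passed the filter on low counts mainly through the ChR2 wells, and its call and its place in the count of 3 carry that limit. Mmp28, the secreted enzyme epilysin, was at 15.1 ± 2.21 against 7.43 ± 3.68 CPM (log2 fold change 1.06, adjusted p = 0.00407; 1.31 without wells 2 and 5). Mmp11, which furin activates inside the cell and which was the most abundant of the 17, was at 69.8 ± 8.25 against 52.1 ± 11.2 CPM (log2 fold change 0.46, adjusted p = 0.0200, and 0.54 without wells 2 and 5), and was named after its values were seen. Mmp1a, Mmp1b, Mmp8, Mmp20 and Mmp27 had 0 counts in all 12 libraries, and 11 of the 17, these 5 included, had at most 3 counts in any library.

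Partners of the family were followed as 4 lists. The median log2 fold change over their tested genes was 0.44 for activation and cell surface partners, 0.88 for inhibition and clearance, 0.08 for transcription factors and 0.62 for substrates, beside -0.02 over all genes tested. Without wells 2 and 5 these medians were 0.41, 1.04, 0.22 and 0.79, in the same order. Of 10 activation and cell surface partners 9 were tested, of which 5 were higher in ChR2 wells and 1 lower, and 6 and 0 without wells 2 and 5. Plau, the urokinase that activates plasminogen, was at 186 ± 17.7 against 108 ± 13.2 CPM (log2 fold change 0.78, adjusted p = 0.000320, and 0.77 without wells 2 and 5). Bsg, a surface glycoprotein that induces metalloproteinases in neighbouring cells, was at 1409 ± 156 against 850 ± 159 CPM (log2 fold change 0.73, adjusted p = 0.00279, and 0.67 without those wells). Furin, the convertase that removes the propeptide of membrane-type enzymes, was at 82.1 ± 5.47 against 137 ± 64.6 CPM (log2 fold change -0.71, adjusted p = 0.0359), and its log2 fold change was -0.24 (adjusted p = 0.129) without wells 2 and 5.

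Of 10 genes of inhibition and clearance 7 were tested, with 6 higher and 0 lower, and 7 and 0 without wells 2 and 5. Cav1, the caveolae protein with which Mmp14 can be internalised, was at 191 ± 24.9 against 59.0 ± 20.9 CPM (log2 fold change 1.66, adjusted p = 7.43e-05, and 1.52 without wells 2 and 5). Thbs2, a thrombospondin that promotes uptake of Mmp2 in mouse fibroblasts, was at 71.8 ± 7.37 against 29.9 ± 9.66 CPM (log2 fold change 1.24, adjusted p = 0.000405, and 1.25 without those wells). Reck, a membrane-anchored metalloproteinase inhibitor named after its values were seen, was at 6.47 ± 0.87 against 3.19 ± 0.77 CPM (log2 fold change 1.02, adjusted p = 0.00148, and 1.095 without those wells).

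Of 13 transcription factors of the AP-1, ETS and Runx families, which have known sites in metalloproteinase promoters, 2 were higher and 2 lower. Without wells 2 and 5, 3 were higher and 1 lower. Etv4 and Jun were higher (log2 fold changes 0.93 and 0.40, adjusted p = 0.0148 and 0.0187), at 1.19 and 0.43 without wells 2 and 5. Runx1 was lower, at 104 ± 14.5 against 165 ± 46.4 CPM (log2 fold change -0.66, adjusted p = 0.0103), and its log2 fold change was -0.43 without wells 2 and 5 (adjusted p = 0.0145). Fosb, at 0.76 ± 0.56 against 2.24 ± 1.07 CPM, was called lower over 12 libraries (adjusted p = 0.0306) but not without wells 2 and 5 (adjusted p = 0.0585).

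Of 15 substrates 7 were higher and 1 lower, and 9 and 1 without wells 2 and 5. Fibronectin (Fn1) was at 3280 ± 423 against 1355 ± 484 CPM (log2 fold change 1.28, adjusted p = 0.000895) and the collagen VI chain Col6a1 at 283 ± 37.2 against 116 ± 57.4 CPM (log2 fold change 1.27, adjusted p = 0.00290), at 1.19 and 1.15 without wells 2 and 5. Dystroglycan (Dag1), a muscle surface receptor that gelatinases cut, was at 432 ± 45.9 against 575 ± 87.2 CPM (log2 fold change -0.41, adjusted p = 0.0320, and -0.38 without those wells).

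**Figure D5:**
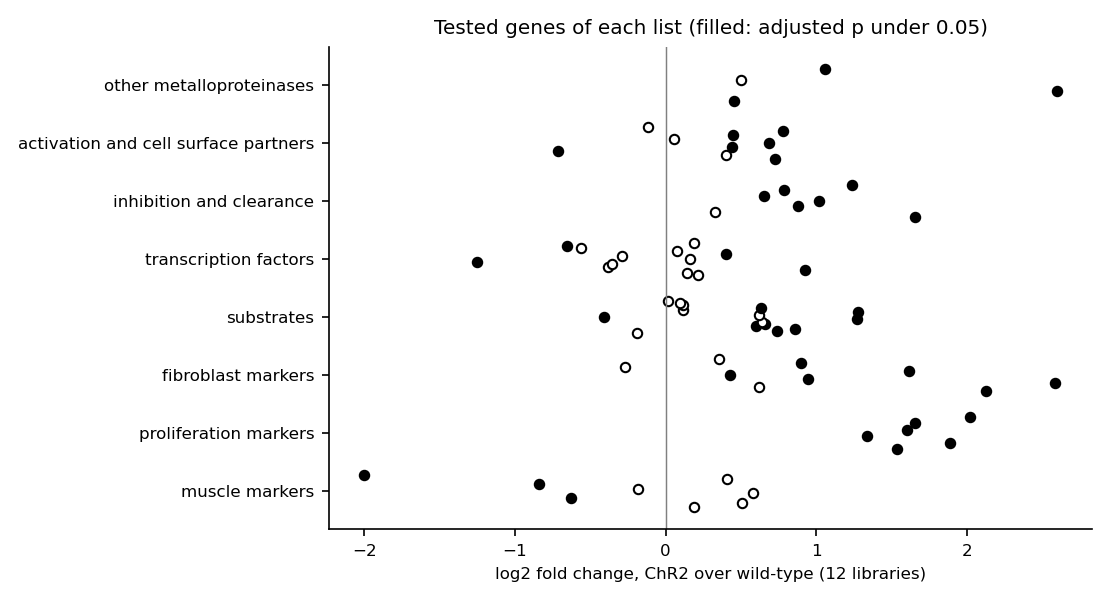
Log2 fold change of ChR2 over wild-type over 12 libraries (x axis) for the tested genes of the partner and marker lists (rows); filled points had an adjusted p under 0.05 by edgeR. Among inhibition and clearance genes 6 of 7 points are filled on the right, while the transcription factors spread to both sides with 2 filled on each.

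Part of the fibroblast marker list moved in the same direction as Mmp2. Of 12 fibroblast and mesenchymal markers 9 were tested, with 6 higher in ChR2 wells and 0 lower, and 7 and 0 without wells 2 and 5. Their median log2 fold change was 0.90 over the tested genes, and 0.93 without those wells. Dpt, the matrix protein dermatopontin, averaged 18.4 ± 2.95 CPM over ChR2 wells against 2.41 ± 2.17 CPM over wild-type wells (log2 fold change 2.58, adjusted p = 0.000151). The collagen Col14a1 averaged 15.9 ± 3.06 against 2.96 ± 3.23 CPM (log2 fold change 2.13, adjusted p = 0.00402). Mfap5, a microfibril protein, averaged 20.9 ± 2.11 against 6.05 ± 3.71 CPM (log2 fold change 1.62, adjusted p = 0.000584). Pdgfra, the receptor used to define mesenchymal progenitors in muscle, was present in both lines at 6.98 ± 1.53 and 8.92 ± 3.19 CPM and was not called (log2 fold change -0.27, adjusted p = 0.401). The summed level of the 12 markers was 409.5 to 499.9 CPM in ChR2 wells and 247.7 to 407.1 CPM in wild-type wells. Among wild-type wells this sum was highest in well 4, which was also the highest wild-type well for Mmp2. The remaining wild-type wells did not keep a common order. Well 5 was above wells 3 and 6 for Mmp2, at 52.8 against 48.1 and 45.8 CPM, but below them for the sum, at 272.2 against 314.9 and 299.9 CPM. Well 2 had the lowest sum and Mmp2 at 48.5 CPM. Most of the summed level of the 12 markers came from Ly6a, at 277 ± 29.6 against 206 ± 23.6 CPM, and Dcn, at 83.35 ± 9.52 against 51.5 ± 30.6 CPM. Ly6a was called higher (adjusted p = 0.0123 by edgeR) and Dcn was not called (adjusted p = 0.114 by edgeR). Of the other markers Tcf21 had 0 counts in all libraries, Thy1 at most 2 and Lum at most 4. Of 6 proliferation markers 6 were higher, with a summed level of 541 to 755 CPM in ChR2 and 68.2 to 419 CPM in wild-type wells, and 6 were without wells 2 and 5. Of 6 endothelial markers 0 were tested, and their summed level was at most 0.962 CPM in any library. The part of fibroblast-like or dividing cells in the levels of the members was not tested.

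The genes whose pattern over the 12 libraries was most like that of Mmp2 were sought among 10967 others of at least 5 CPM. By the mean absolute difference in log2 CPM centred on each gene, the nearest 5 were Fbln2 (0.166), Bgn (0.180), Cercam (0.191), Mthfd1l (0.201) and Cc2d2a (0.213), beside a median of 0.927 over all candidates. Fbln2 and Bgn encode matrix proteins, fibulin and biglycan. For Timp3 the nearest 5 were Atl3 (0.110), Wipf1 (0.118), Zfp36l2 (0.125), Lgals9 (0.135) and Reep3 (0.136), beside a median of 0.464. Over the 10 libraries without wells 2 and 5, 4 of the 5 genes nearest to Mmp2 were shared with those over 12, and Prelp took the place of Cc2d2a. For Timp3 1 of 5 was shared, Wipf1, so which 5 genes came nearest depended on those wells. The 5 genes found over 12 libraries all stayed within the nearest 56 of 10967 candidates for Timp3, and within the nearest 33 for Mmp2. These are descriptions with no test.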

How the data were processed

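RNA from 12 wells was selected by its poly(A) tail, and per the labels' protocols low-input samples, which are not named, went through ribosomal RNA depletion instead. The deposited tables hold estimated counts per gene, not always whole, and TPM. Per the submitters' processing notes, Salmon, STAR, bedtools 2.25.0 and BWA 0.7.12-r1039 were among the tools, and GRCm39, mm10 and hg19 among the builds. Their roles are not given in the sources used here, nor is the use of strand in counting. Coordinates are therefore printed for RefSeq promoter windows alone. Columns were matched to samples by title and grouped by the genotype label.

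Estimated counts were rounded, filtered (filterByExpr, minimum count 10) and TMM-scaled, and genotype was tested in edgeR 4.0.16 under R 4.3.3 with glmQLFit (robust) and glmQLFTest. P-values were adjusted by Benjamini-Hochberg over every gene tested, with 0.05 as the threshold. SE is the log2 fold change divided by the root of F. Reads were amplified and carry no molecular identifiers, so intervals from depth would cover counting error alone. In simulated data shaped on the 12 libraries (13238 genes), 25.4%, 77.6% and 96.7% of changes of 1.5-fold, 2-fold and 4-fold were found, with 6.57% false calls. In data shaped on the 10 libraries lacking wild-type wells 2 and 5 (13443 genes), the shares were 45.5%, 78.5% and 92.2%, with 4.11% false calls. Few genes were changed in the simulations, 61 to 67 at each fold for the 12 libraries, where 28.1% of genes were called in the data. Apart from the changed genes, all simulated libraries had the same make-up, unlike wild-type wells 2 and 5. These rates therefore describe the simulated setting and need not hold for the data. No pair of wells within a line agreed within sampling noise (chi-square per degree of freedom of at least 5.09), so each counted once.

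Members, lists, tests and settings were chosen with earlier results of these data known. Named genes were all members, from each partner list up to 2 rises and 2 falls with the largest change among called genes of at least 1 CPM in 1 line, and the 5 genes most like Mmp2 and Timp3. Single muscle, fibroblast and leukocyte markers are named outside this rule, chosen with their values known, as are Mmp11, Reck, Prelp, Ccl2, Rn7s1 and Rn7s2. Other settings were size factors from DESeq2 1.42.0, its Wald test, upper-quartile scaling, voom with quality weights (limma 3.58.1), no filter, 1 CPM in 6 libraries, a replicate block, each library left out, wells 2 and 5 left out, and limma fits of TPM. The TPM fits added 1 or 0.1 before taking log2 and kept genes with 1 TPM in 6 libraries, or kept all genes. The TPM fit that leaves out wells 2 and 5 and the likeness measure without them were chosen after the data were seen. Figures were drawn with matplotlib 3.10.9.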

Additional observations from a re-analysis of the deposited data

Results flagged for a closer look

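Timp4 stood at 1.31 CPM in wild-type well 2, far from the other wild-type wells at 0 to 0.415 CPM. That value rests on 1 count in the library with the fewest counts, so it lies under the floor of 3 counts. It was the 1 such value among 20 groups of 6 wells examined, and chance gives about 1 in 20.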

How the results depend on the processing

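The rise of Mmp2 kept its call under all 24 alternatives run (log2 fold change 1.64 to 2.31). Mmp14, Timp1 and Timp3 lost theirs only in the 3 fits on TPM of all 12 libraries (adjusted p 0.182 to 0.332). Their log2 fold changes there were larger, 0.98 to 1.00 for Mmp14, 0.99 for Timp1 and 1.09 to 1.13 for Timp3, with SE of 0.40 to 0.48. All 3 fits include wild-type wells 2 and 5, where 7SL RNA made up 24.8% and 8.37% of counts. The median log2 fold change of all genes in them was 0.35, 0.43 and 0.08. Those fits called 620 of 12989 genes on log2(TPM + 1), 592 higher and 28 lower, and 271 of 12989 on log2(TPM + 0.1), 254 higher and 17 lower. Without a filter 425 of 26704 were called, 402 higher and 23 lower. In each of those fits 1 member was called, 1 higher and 0 lower. The DESeq2 Wald test, over 26664 genes, had a median of -0.18. On TPM without wells 2 and 5, 4 members were higher and 0 lower, beside 3395 of 12879 genes called, 1532 higher and 1863 lower. Timp2 turned to -0.23 there (adjusted p = 0.0661 by limma) and Mmp15 missed at adjusted p = 0.0515 by limma. With 1 library left out, 2822 to 4115 genes were called of 13253 to 13341 tested. Among them were 4 to 5 members in all, 4 higher and 0 to 1 lower. Mmp15 was the member lost in 15 of its 24 alternatives (log2 fold change -0.79 to -0.15), upper-quartile scaling among them (0 members lower), and under no filter the 1 member lower was Mmp10 in its place. Mmp19, never called, turned sign in 15 of 24: to 0.0036 with DESeq2's size factors, 0.053 with upper-quartile scaling, 0.010 with the Wald test, 0.39, 0.52 and 0.39 on TPM, 0.018 with the replicate block, 0.086 and 0.038 without wells 2 and 5 in counts and TPM, and between -0.16 and 0.076 with 1 library left out. Same-numbered wells did not deviate together (r from -0.144 to 0.0954, 1 of 6 closest to its own number). With the replicate block 2641 of 13168 genes were called, and 4 members higher and 0 lower. Depth limits Mmp9, Mmp10 and Timp4.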

Other observations

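The deposited tables imply a different average length of the Timp2 message in ChR2 wells and in wild-type wells 1, 3, 4 and 6. Estimated count divided by TPM gives a length on each library's own scale, and relative to Timp1 in the same library it was 3.55 to 3.98 for Timp2 in ChR2 wells and 3.04 to 3.33 in wild-type wells 1, 3, 4 and 6. It was 5.21 and 4.80 in wild-type wells 2 and 5, so wild-type wells lay on both sides of the ChR2 wells. The ranges of the ChR2 wells and of wild-type wells 1, 3, 4 and 6 overlapped for Mmp2, Mmp14, Mmp15, Mmp19 and Timp3, and not for Timp2. The share of all genes separated in this way was not computed. The Timp2 ratios in TPM above carry this difference, which is on the scale of estimated transcript use and was not tested. It was noticed after the values were seen.

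The chemokine Ccl2, named after its values were seen, shared 1 of the 2 high wells of Mmp9. It stood at 33.1 CPM in wild-type well 4, but at 2.49 CPM in well 6, which is within the range of the other wild-type wells.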
